A study of Homo sapiens with 21 samples.

Results

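The effect of a GSX2 pulse was measured at 24 h, 12 h after the inducer had been withdrawn. Its members are 6 of the series' 21 libraries, namely the 3 labelled Dox and the 3 labelled NoDox at 24 h, and the effect is the difference between them over every feature that passed a filter on low counts. RNA came from H9 human embryonic stem cells that carry a transgene, TRE3G 2xFLAG-GSX2 WT, in which a doxycycline-responsive promoter drives FLAG-tagged wild-type GSX2. Both groups carry the transgene, and both were differentiated in Essential 6 medium with LDN193189, SB431542 and XAV939, then with LDN193189 and SB431542, then with IWP2 and Activin A. Poly(A) RNA was taken from monolayers and made into libraries with a directional kit. The Dox group received 100 ng/mL doxycycline for 12 h from day 10 and was collected at 24 h. The NoDox group was collected at the same hour without the drug. The other groups are Dox and NoDox at 12 h and at 48 h, and day 10, with 3 libraries each. The cells are 1 line, and none of the groups tested the drug in cells lacking the transgene, so effects of the drug itself and of GSX2 cannot be told apart in any Dox comparison. Whether the replicates came from separate cultures is not stated in the labels. The spread that p-values rest on is therefore that among these libraries, and it may be technical.

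GSX2 is a homeobox transcription factor of the lateral ganglionic eminence (LGE), the part of the ventral forebrain whose progenitors give rise to striatal projection neurons and to olfactory bulb interneurons. In mouse it holds progenitors in an LGE fate, represses dorsal (cortical) regulators such as Pax6 and Emx2 at the boundary between the pallium and the subpallium, and is turned off as cells move on to express Dlx genes and differentiate.

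The 24 h libraries held 21.92 to 24.3 M counts in Dox and 21.53 to 33.84 M in NoDox, and a gene with 0 counts there could lie as high as 0.0874 to 0.137 CPM (counts per 1 M counts), by 3 counts and for counting error only. The NoDox cells expressed forebrain progenitor genes, among them SIX3 (mean 209 CPM), SOX2 (894 CPM) and DLX2 (61.0 CPM), together with the early neuronal gene DCX (393 CPM). Levels are CPM scaled by TMM, and fold changes are log2 of Dox over NoDox ± an approximate standard error (n = 3 each), tested with edgeR's quasi-likelihood test. "Higher" and "lower" mean an adjusted p below 0.05 over all 19655 features tested of the 61268 listed. In bulk RNA, fewer cells of a type and less RNA per cell cannot be told apart. In each 24 h group replicate 1 was the library farthest from the others, with chi-square values per degree of freedom over genes of 4.22 and 4.84 in Dox and 3.94 and 4.41 in NoDox, against 1.85 in Dox and 1.95 in NoDox between replicates 2 and 3. The third 12 h Dox library (17.52 M counts) and the first day 10 library (14.44 M counts), the shallowest of their groups, lay apart from them on the third principal component. Without both, 4010 features were higher and 4038 lower at 24 h, and the difference from 12 h was positive in 3768 and negative in 3416.

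Transgene reads stood at 13.6, 19.6 and 25.2 CPM in the Dox libraries, against 0.233, 0.126 and 0.0457 CPM in NoDox. The 12 h Dox group had 876 ± 114 CPM, and at 24 h the Dox libraries were far below that level and wholly above NoDox. Reads counted for GSX2 (chromosome 4, 54099523 to 54102498, hg38) were 4.04, 5.48 and 9.31 CPM in Dox, against 14.7, 12.1 and 11.3 CPM in NoDox. All 3 Dox libraries lay below all 3 NoDox libraries (log2 fold change -1.04 ± 0.22, adjusted p = 0.00147), and the Dox library with the most transgene reads had the most GSX2 reads. A fit with the replicate number as a block gave -1.06, which did not pass (adjusted p = 0.0696). At 12 h, reads counted for GSX2 averaged 288 ± 9.73 CPM in Dox and 8.62 ± 1.80 CPM in NoDox. The GSX2 count in Dox may therefore include transgene reads, and how many was not tested. Any such reads at 24 h would make the fall of the cells' own GSX2 larger than the value given.

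Across the transcriptome 3349 features were higher (17% of those tested) and 3316 lower (16.9%) in Dox at 24 h. At least 2-fold changes numbered 726 higher (3.69%) and 680 lower (3.46%), 7.15% together. All 3 Dox libraries lay above all 3 NoDox libraries in 25.9% of features and below them in 26.1%, the background for each statement below that groups lay wholly apart. The most abundant increases were in DLK1, a Notch-like membrane protein (8912, 8624 and 8485 CPM in Dox, against 5495, 6380 and 6051 CPM in NoDox), and in the glucose transporter SLC2A1 (3570, 3536 and 3522 CPM in Dox, against 1552, 1598 and 1623 CPM in NoDox). SMOC1, a secreted calcium-binding matrix protein, was at 754, 656 and 622 CPM in Dox, against 171, 169 and 165 CPM in NoDox. In each of these genes the Dox libraries lay wholly above the NoDox libraries, with log2 fold changes of 0.54 ± 0.08, 1.16 ± 0.08 and 2.01 ± 0.07 in the order DLK1, SLC2A1 and SMOC1. The 24 h NoDox level of DLK1 was itself below that of day 10 (8005, 8478 and 7894 CPM) and of NoDox at 48 h (8199, 8281 and 8521 CPM). The largest losses in CPM included the actins ACTG1 (-0.49 ± 0.06) and ACTB (-0.27 ± 0.07) and the imprinted genes NNAT (-0.56 ± 0.12) and PEG10 (-1.09 ± 0.08).

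**Figure D1:**
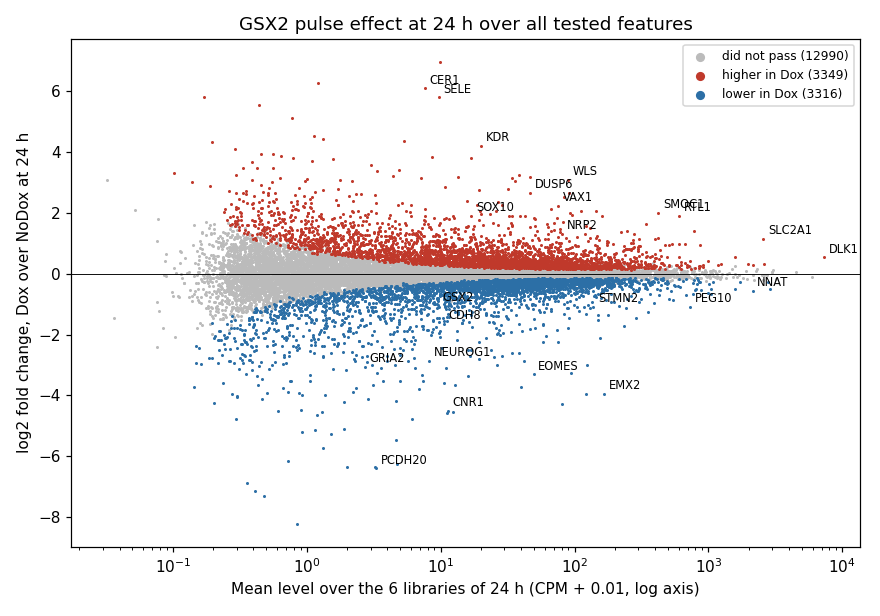
Log2 fold change of Dox over NoDox at 24 h (y axis) against the mean level over the 6 libraries in CPM + 0.01 (x axis, log scale), with 1 point per tested feature; red points (3349) were higher and blue points (3316) lower in Dox. The steepest changes are at low to middle levels, while abundant genes such as DLK1, SLC2A1 and NNAT had log2 fold changes between -0.56 and 1.16.

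Among genes with at least 2 CPM in 1 of the 24 h groups, several of the steepest increases started from almost nothing. ERMN, a cytoskeletal protein of oligodendrocytes, had 2.31, 2.78 and 2.08 CPM in Dox, against 0.0291, 0.0420 and 0 CPM in NoDox. That is 166 reads against 2, a ratio of 95.8 with a counting interval of 26.1 to 798 (exact binomial, 95%), and day 10 had 0 reads. NPR1, the receptor of atrial natriuretic peptide, had 2.88, 2.65 and 1.99 CPM in Dox, against 0.175, 0.0420 and 0.0913 CPM in NoDox (4.43 ± 0.49).

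FOXI1, a forkhead factor of ectodermal placodes and ionocytes, had 11.2, 9.44 and 9.68 CPM in Dox, against 0.583, 0.630 and 0.183 CPM in NoDox (4.37 ± 0.28). METTL7A (3.37 ± 0.25), the integrin ITGAX (3.72 ± 0.46), the receptor LPAR6 (3.59 ± 0.23) and INSYN2B (3.79 ± 0.51) rose as well, all with Dox libraries wholly above NoDox. Among the decreases, CDH18, a neuronal cadherin, had 0.0412, 0.0870 and 0 CPM in Dox, against 2.45, 2.77 and 2.51 CPM in NoDox. It had 3 reads in Dox against 205, a ratio of 59.2 of NoDox over Dox with a counting interval of 19.97 to 289. UNC13C, a synaptic vesicle priming factor (-5.11 ± 0.41), BDNF, a neurotrophin (-4.64 ± 0.39), TRPM8, the cold-sensing channel (-4.54 ± 0.45), TRIM67 (-4.23 ± 0.43), the neural POU factor POU3F4 (-3.89 ± 0.38) and SPINK5 (-3.78 ± 0.23) fell, each with Dox libraries wholly below NoDox.

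Promoter sequence is shown for 3 of the genes with the widest changes, because GSX2 is a homeodomain protein and TAATTA, which reads the same on both strands, is the core letters that many homeodomains bind. The windows are RefSeq's (GRCh38.p14), from 250 bases before to 50 after the start site, 5′ to 3′ on the gene's strand, and capitals mark TAATTA. Of the 43 genes named for their fold change or CPM difference that have a window, 4 hold the letters, and the 3 shown were chosen among these after their values were seen. EMX2 (chr10:117542496-117542795, plus strand) had a log2 fold change of -3.94, and CER1 (chr9:14722684-14722983, minus strand) and SELE (chr1:169734030-169734329, minus strand) had 6.10 and 5.80.
EMX2: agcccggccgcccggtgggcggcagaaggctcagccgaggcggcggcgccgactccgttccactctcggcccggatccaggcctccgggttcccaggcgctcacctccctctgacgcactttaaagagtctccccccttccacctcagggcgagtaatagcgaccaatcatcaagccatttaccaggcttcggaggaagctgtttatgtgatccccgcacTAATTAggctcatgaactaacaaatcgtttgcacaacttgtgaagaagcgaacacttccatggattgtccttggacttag
CER1: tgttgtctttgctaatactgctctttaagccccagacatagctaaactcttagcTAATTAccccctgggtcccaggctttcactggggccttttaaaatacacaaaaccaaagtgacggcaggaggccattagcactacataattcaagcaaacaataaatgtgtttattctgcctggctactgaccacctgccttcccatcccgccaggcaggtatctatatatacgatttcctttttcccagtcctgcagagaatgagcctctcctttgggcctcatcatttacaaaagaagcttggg
SELE: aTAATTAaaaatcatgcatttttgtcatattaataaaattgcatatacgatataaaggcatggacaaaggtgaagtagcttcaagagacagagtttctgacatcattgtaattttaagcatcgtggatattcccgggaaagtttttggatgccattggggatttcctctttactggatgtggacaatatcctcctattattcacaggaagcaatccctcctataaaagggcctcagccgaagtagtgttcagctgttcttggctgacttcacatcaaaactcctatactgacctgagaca
The match began 30 bases before the start site in EMX2, 196 before it in CER1 and 249 before it in SELE. A match is a description of the letters and not a bound site, and binding was not measured in these libraries. RefSeq windows were found for 12958 tested genes, taking the most upstream start of each, and 289 of them (2.23%) held TAATTA. Of the genes higher by at least 2-fold, 13 of 469 with a window held it (2.77%), and of those lower by at least 2-fold, 20 of 437 (4.58%). The letters CCGGAAGT, which ETS factors bind, searched on both strands, were in 3 of 469 windows of the higher genes (0.64%), in 3 of 437 of the lower (0.686%) and in 1004 of all 12958 (7.75%). The median GC content of the windows was 63.3% in the higher genes, 63% in the lower and 65% in all.

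Subpallial regulators split. Of 19 tested members of the LGE and subpallial list, 3 were higher and 12 lower, with a median log2 fold change of -0.74 against -0.00372 over all features. VAX1, a homeobox gene of the ventral forebrain and optic stalk, had 120, 125 and 127 CPM in Dox, against 22.8, 28.7 and 28.0 CPM in NoDox (2.23 ± 0.10, adjusted p = 7.39e-16). DLX1, which acts downstream of GSX2 in the mouse LGE, had 129, 98.7 and 89.7 CPM in Dox, against 53.7, 44.7 and 39.0 CPM in NoDox (1.20 ± 0.21, adjusted p = 0.000305). In both genes the 24 h Dox libraries were the highest 3 of all 21, as they were in 3.43% of features, while they were the lowest 3 in 2.25%.

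DLX2, the neighbour and paralog of DLX1, had 110, 82.3 and 71.7 CPM in Dox, against 76.6, 54.6 and 51.9 CPM in NoDox, and the groups overlapped (0.53, adjusted p = 0.133). The later-acting DLX5 had 8.40, 7.003 and 5.92 CPM in Dox, against 27.2, 21.6 and 17.0 CPM in NoDox (-1.63 ± 0.26), wholly apart. DLX6 (-1.83 ± 0.21) fell too, and so did DLX6-AS1, the long RNA across it (40.6, 22.3 and 18.9 CPM in Dox, against 302, 185 and 168 CPM in NoDox; -3.00 ± 0.42). The counting's strand setting is not given, so reads of DLX6 and DLX6-AS1 cannot be told apart. SIX3, an anterior forebrain factor, rose (388, 395 and 383 CPM in Dox, against 197, 212 and 219 CPM in NoDox; 0.89). The TALE partners MEIS1 (-2.13 ± 0.12) and MEIS2 (-0.81), SP9 (-1.17), the striatal factors FOXP2 (-1.79 ± 0.25) and ISL1 (-0.74), and PBX3 (-0.61) fell. GSX1, the paralog of GSX2, had 1 read over the Dox libraries against 117 in NoDox, a ratio of 101.4 of NoDox over Dox with a counting interval of 17.8 to 4037.

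Dorsal pallial regulators were mostly lower: 15 of 22 fell and 4 rose, with a median of -1.09. EMX2 had 25.1, 18.8 and 17.3 CPM in Dox, against 327, 309 and 306 CPM in NoDox. EOMES, the marker of cortical intermediate progenitors, had 11.2, 9.004 and 7.14 CPM in Dox, against 95.2, 88.9 and 86.0 CPM in NoDox (-3.30 ± 0.13). Neither gene's groups came near each other.

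TBR1, a factor of early cortical neurons (-2.59), EMX1 (-2.31), the proneural factor NEUROG1 (1.81, 1.74 and 2.40 CPM in Dox, against 13.9, 15.2 and 14.0 CPM in NoDox; -2.86 ± 0.16), LHX9 (-3.53 ± 0.25), TFAP2C (-3.89 ± 0.50), DMRTA2 (-2.49), PAX6 (-0.92) and GLI3 (-0.74 ± 0.09) fell with them. The antisense EMX2OS (-3.96 ± 0.11) lies across EMX2, and their reads cannot be told apart. The 4 that rose were FEZF2 (108, 102 and 108 CPM in Dox, against 30.9, 33.7 and 35.3 CPM in NoDox; 1.67), LHX2 (414, 362 and 353 CPM in Dox, against 240, 220 and 208 CPM in NoDox; 0.76), SP8 (0.33) and DMRTA1 (0.26). FEZF2 and LHX2 are forebrain selector genes active early, and the 24 h Dox libraries were the highest 3 of the series in both. FEZF1, the paralog of FEZF2, went the other way (218, 209 and 194 CPM in Dox, against 469, 521 and 499 CPM in NoDox; -1.26 ± 0.06), and reads of its antisense gene cannot be told apart from it.

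Boundary, midline and eye field genes went both ways, with more of them lower than higher. Of 10 tested ventral pallium and boundary genes 3 were higher and 6 lower. FGF7 had 0 reads in the Dox libraries against 70 in NoDox, a ratio whose exact counting interval starts at 16.01-fold lower (20.2-fold when the Dox group as a whole is set at 3 counts, with no allowance for counting error in NoDox). BARHL2 (-5.28 ± 0.69), DBX1 (-1.68 ± 0.47) and the orphan receptor NR2E1, which maintains neural stem cells (13.9, 11.4 and 10.7 CPM in Dox, against 52.5, 44.6 and 42.2 CPM in NoDox; -1.95 ± 0.16), fell. Of 8 tested genes of the medial ganglionic eminence and ventral midline, LMO1, a LIM-only cofactor, rose (104, 94.1 and 84.1 CPM in Dox, against 33.1, 30.6 and 32.7 CPM in NoDox; 1.55 ± 0.09), and LMO4 (-1.0 ± 0.07), NKX2-1 (-3.52 ± 0.54) and SHH (-2.52 ± 0.59) fell, the last pair from levels under 2 CPM.

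Of 16 anterior forebrain and eye field regulators 3 rose and 6 fell. RAX, an eye field gene (1.32 ± 0.14), rose, as did OTX2 by a small amount (0.19). OTX1 (-1.87 ± 0.25), ZIC4 (-0.56) and LHX5 (-0.59) were among those that fell.

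**Figure D2:**
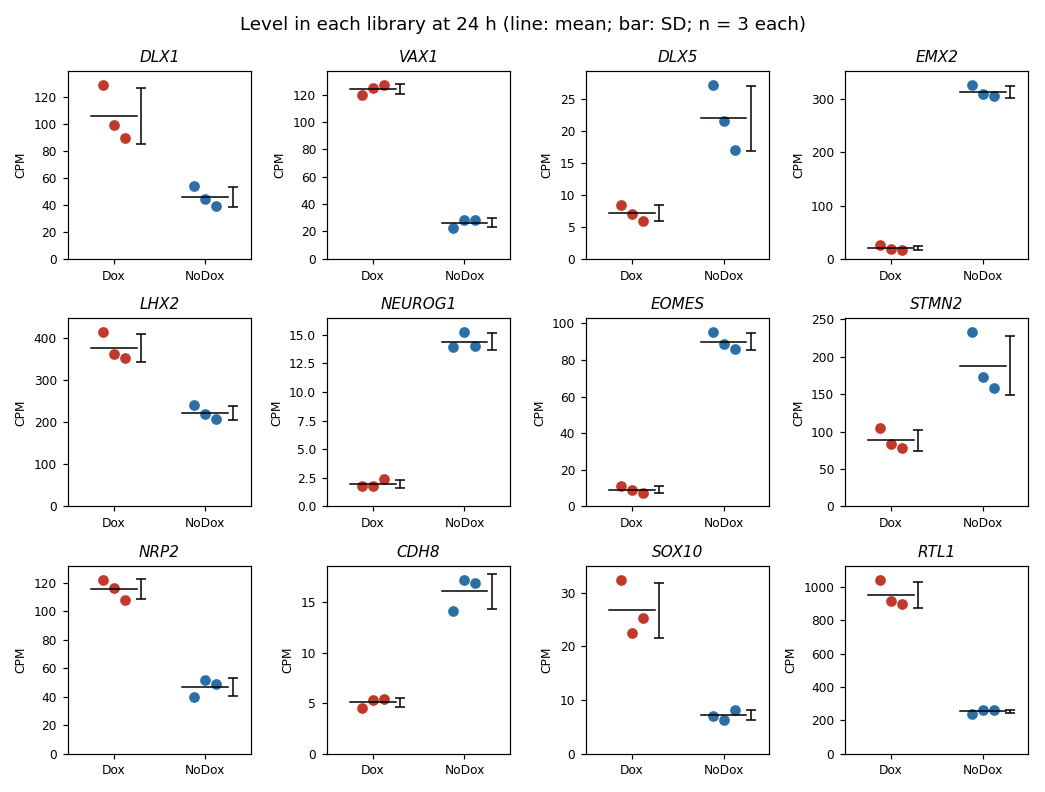
Level of 12 genes in each 24 h library (y axis, CPM from 0), Dox in red on the left and NoDox in blue on the right of each panel, with the mean as a line and the SD as a bar (n = 3 each). DLX1, VAX1, LHX2, NRP2, SOX10 and RTL1 lay wholly higher in Dox, and DLX5, EMX2, NEUROG1, EOMES, STMN2 and CDH8 wholly lower.

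General progenitor genes differed little in total. Of 20 radial glia and progenitor genes 4 were higher and 7 lower, with a median of -0.12, and the summed level was 8330 to 8850 CPM in Dox and 8710 to 8780 CPM in NoDox. VIM (-0.05, adjusted p = 0.666), SOX1 (-0.09, adjusted p = 0.246) and TTYH1 (-0.01, adjusted p = 0.91) did not pass. NES, an intermediate filament of neural stem cells, rose (1889, 1843 and 1842 CPM in Dox, against 1274, 1261 and 1286 CPM in NoDox; 0.54 ± 0.06), as did SOX9 (0.25) and HES1 (0.62 ± 0.11). SOX21 (24.5, 23.1 and 20.3 CPM in Dox, against 69.6, 82.7 and 82.8 CPM in NoDox; -1.79 ± 0.09), POU3F2 (-1.27 ± 0.17), PTPRZ1 (-0.97 ± 0.11) and MSI1 (-0.51) fell.

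Genes that start and carry neuronal differentiation were lower. Of 24 neurogenesis-initiating genes 15 fell and 2 rose (median -0.51), and of 25 postmitotic neuron genes 20 fell and 3 rose (median -0.62). Without Dox replicate 1, NoDox replicate 2 or NoDox replicate 3, 1 of the 24 rose. HES6, a promoter of neurogenesis, had 92.6, 103 and 102 CPM in Dox, against 254, 261 and 255 CPM in NoDox (-1.37 ± 0.07). STMN2, a microtubule regulator of growing neurites, had 104, 82.7 and 78.0 CPM in Dox, against 233, 173 and 158 CPM in NoDox (-1.09 ± 0.21).

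In both genes all Dox libraries lay below all NoDox libraries. INSM1 (-1.17 ± 0.09), NHLH1 (-1.12 ± 0.08), the RNA-binding ELAVL3 (-1.11 ± 0.13), SYT4 (-1.58 ± 0.11), RTN1 (-1.10 ± 0.11), TUBB3 (-0.42) and MAP2 (-0.45) fell as well. DCX did not pass (382, 317 and 303 CPM in Dox, against 434, 377 and 369 CPM in NoDox; -0.24, adjusted p = 0.18), and its groups overlapped. Those that rose were the Notch ligand DLL1 (0.24) and the small GTPase RND2 (0.20) of the first list, and NEFM (0.50), RBFOX3 (0.57) and L1CAM (0.42) of the second. Of 20 GABAergic and striatal neuron genes 8 fell and 2 rose (median -0.40), and 1 rose when any one of Dox replicates 2 and 3 and NoDox replicates 2 and 3 was left out. The neuregulin receptor ERBB4 had 1.90, 1.30 and 1.67 CPM in Dox, against 18.7, 19.7 and 20.6 CPM in NoDox (-3.59 ± 0.17), and the enzyme GAD1 fell (-0.76) while its paralog GAD2 was called higher at a low level (4.20, 5.65 and 5.74 CPM in Dox, against 4.52, 2.77 and 1.92 CPM in NoDox; 0.72, adjusted p = 0.0123), with overlapping groups.

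Of 48 tested channels and transmitter receptors 24 fell, 7 rose and 17 did not pass (median -0.42). The AMPA receptor subunit GRIA2 had 0.618, 0.391 and 0.769 CPM in Dox, against 6.91, 4.03 and 3.65 CPM in NoDox (-3.06 ± 0.38). The calcium channel subunit CACNA2D1 had 6.63, 7.26 and 6.19 CPM in Dox, against 34.4, 28.7 and 33.1 CPM in NoDox (-2.26). Neither gene's groups overlapped. GRIK2 (-2.80 ± 0.23), GABRB2 (-2.39 ± 0.26), SCN2A (-1.90) and the nicotinic subunits CHRNA3 (-1.34) and CHRNB4 (-1.51) fell too. The kainate subunit GRIK3 (27.0, 22.6 and 20.4 CPM in Dox, against 8.95, 6.97 and 7.99 CPM in NoDox; 1.54), the GABA-A subunit GABRA5 (1.84) and the potassium channel KCNQ3 (0.83) rose.

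Surface and guidance genes changed in opposite directions within families. Of 22 cadherins and protocadherins 15 fell and 4 rose (median -0.97). CDH6 had 42.0, 48.0 and 45.0 CPM in Dox, against 9.21, 8.90 and 8.31 CPM in NoDox (2.35 ± 0.13), and CDH11 had 519, 515 and 505 CPM in Dox, against 156, 170 and 171 CPM in NoDox (1.63). CDH8 had 4.57, 5.35 and 5.38 CPM in Dox, against 14.1, 17.2 and 16.9 CPM in NoDox (-1.65).

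CDH6 and CDH8 are type II cadherins whose expression differs between compartments of the developing mouse forebrain, and here each had Dox libraries wholly on one side of NoDox. CDH4 (-1.65), CDH7 (-3.27 ± 0.23), PCDH7 (-1.77 ± 0.10), PCDH9 (-1.52), PCDH10 (-1.33), PCDH17 (-1.08), PCDH19 (-0.87) and PCDH11X (-2.72 ± 0.24) fell. N-cadherin, CDH2, did not pass (-0.16, adjusted p = 0.0504).

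Of 33 guidance genes 12 rose and 13 fell (median 0.02). Netrin-1, NTN1, had 58.4, 48.0 and 46.8 CPM in Dox, against 16.4, 16.3 and 15.7 CPM in NoDox (1.66), while its attractive receptor DCC had 31.3, 25.4 and 22.2 CPM in Dox, against 143, 116 and 112 CPM in NoDox (-2.23 ± 0.18). Among netrin's repulsive receptors, UNC5B rose (87.0, 81.1 and 79.4 CPM in Dox, against 36.6, 37.5 and 37.0 CPM in NoDox; 1.16) and UNC5D fell (-1.93 ± 0.14). Semaphorin receptors split too, since NRP2 had 122, 116 and 108 CPM in Dox, against 39.6, 51.7 and 49.1 CPM in NoDox (1.31 ± 0.12), and NRP1 had 3.05, 3.44 and 3.75 CPM in Dox, against 12.9, 10.7 and 9.77 CPM in NoDox (-1.71). In all 6 genes the groups lay wholly apart. SLIT ligands also differed, with SLIT2 lower (72.7, 83.4 and 76.2 CPM in Dox, against 197, 242 and 227 CPM in NoDox; -1.52), SLIT3 higher (28.8, 24.6 and 20.1 CPM in Dox, against 2.45, 3.15 and 2.47 CPM in NoDox; 3.19 ± 0.15), SLIT1 called higher with overlapping groups (0.38), and their receptor ROBO2 lower (8.98, 6.74 and 7.14 CPM in Dox, against 55.7, 48.9 and 45.9 CPM in NoDox; -2.72 ± 0.12) while ROBO1 did not pass (0.09, adjusted p = 0.656). SEMA6A (1.37), EFNB1 (0.93), EPHB2 (0.66) and EPHB3 (0.68) rose, and SEMA3A (-1.16), EPHA3 (-1.87 ± 0.15), EPHA7 (-1.94 ± 0.11) and EFNB2 (-0.47) fell.

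Feedback genes of the ERK pathway, which FGF receptors activate, were mostly higher. Of 20 in the list 16 rose and 2 fell (median 1.12), with a summed level of 2670 to 2690 CPM in Dox and 1250 to 1410 CPM in NoDox. SPRY2, an inhibitor of receptor signalling, had 142, 166 and 160 CPM in Dox, against 20.3, 28.0 and 26.6 CPM in NoDox (2.66 ± 0.11). Its NoDox level was itself low at 24 h, against 52.6, 56.9 and 58.7 CPM at day 10 and 56.8, 67.6 and 59.0 CPM in NoDox at 48 h. ETV5 had such a NoDox dip too, while CCND1 in NoDox at 24 h overlapped day 10 and 48 h. Part of the fold change of SPRY2 and ETV5 thus lies in NoDox, though their 24 h Dox libraries were above every other library of the series. IL17RD, another membrane inhibitor of FGF receptors (1.17), DUSP4 (1.09), ETV5 (1.57 ± 0.11), FLRT3 (1.14) and the cyclin CCND1 (385, 395 and 410 CPM in Dox, against 147, 170 and 163 CPM in NoDox; 1.31 ± 0.07) rose, and FLRT2 (-1.10) and EPHA4 (-0.37) fell. Among 19 FGF ligands and receptors 7 rose and 5 fell, or 3 without Dox replicate 3, NoDox replicate 1 or NoDox replicate 2. The receptor FGFR2 had 56.0, 53.7 and 51.2 CPM in Dox, against 16.5, 11.8 and 14.7 CPM in NoDox (1.89 ± 0.10), and the ligand FGF9 had 1.61, 2.39 and 2.08 CPM in Dox, against 6.09, 4.24 and 5.30 CPM in NoDox (-1.37 ± 0.19).

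BMP response genes rose more often than they fell, 8 against 2 of 13 (median 0.97), among them ID3 (5.97, 7.22 and 7.23 CPM in Dox, against 2.36, 2.60 and 2.15 CPM in NoDox; 1.52 ± 0.15) and the inhibitory SMAD6 (1.07 ± 0.12). The summed level of the list overlapped, at 482 to 509 CPM in Dox and 462 to 501 CPM in NoDox. Of 32 WNT pathway genes 11 rose and 8 fell. WLS, the carrier that WNT proteins need for secretion, is in no list and was taken for its change between the times. It had 143, 169 and 168 CPM in Dox, against 19.8, 18.9 and 17.8 CPM in NoDox (3.08 ± 0.21, adjusted p = 5.07e-09).

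The Dox libraries were thus wholly above NoDox, and above every other library of the series. The receptor FZD7 (185, 193 and 196 CPM in Dox, against 65.1, 68.9 and 69.3 CPM in NoDox; 1.5 ± 0.06) and the ligands WNT7B (0.73) and WNT5B (0.86) rose, and WNT7A (-2.76 ± 0.33), WNT4 (-3.12 ± 0.31), WNT1 (-2.75 ± 0.38), RSPO3 (-2.47 ± 0.19) and LGR5 (-1.36) fell. AXIN2, a common WNT target, did not pass (20.1 CPM in Dox and 19.9 CPM in NoDox on average; 0.01, adjusted p = 0.935). Of 23 Notch pathway genes 10 rose and 9 fell; the receptors NOTCH1 (0.40) and NOTCH2 (0.90 ± 0.14) and the ligand JAG1 (0.50) rose, and DNER (-1.39 ± 0.13), LFNG (-0.73) and HES5 (-0.56 ± 0.08) fell. Of 12 Hedgehog pathway genes 5 rose and 2, SHH and GLI3, fell; among those that rose was the coreceptor GAS1 (98.6, 93.1 and 97.7 CPM in Dox, against 37.0, 38.4 and 33.9 CPM in NoDox; 1.40 ± 0.09), and of 14 retinoic acid genes 3 rose and 3 fell, with the retinol receptor STRA6 higher (2.07 ± 0.10) and the retinoic acid receptor RARB lower (-2.52 ± 0.37).

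Matrix genes divided by member, 15 of 32 higher and 13 lower (median 0.07). COL1A1 had 881, 1227 and 1304 CPM in Dox, against 391, 440 and 447 CPM in NoDox (1.42 ± 0.17), yet its partner chain COL1A2 did not pass (-0.11, adjusted p = 0.247) and COL3A1 fell (-1.0 ± 0.12). LAMB1 (101, 117 and 118 CPM in Dox, against 43.1, 43.1 and 42.4 CPM in NoDox; 1.38 ± 0.07), COL18A1 (0.99 ± 0.07), COL5A1 (0.96) and FBLN2 (1.60 ± 0.09) rose, and COL11A1 (-0.68 ± 0.09), COL5A2 (-0.94), COL4A6 (-0.85), FN1 (-0.59) and the crosslinking enzyme LOX (-1.76 ± 0.20) fell.

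Cell cycle lists had small median changes. Of 23 S phase and G1 genes 11 fell and 4 rose (median -0.17), and of 23 G2 and M phase genes 7 fell and 0 rose (median -0.07), with log2 fold changes of -0.40 ± 0.07 for NUSAP1 and -0.27 ± 0.08 for TOP2A. Of the S phase and G1 genes 6 fell without Dox replicate 1, and 2 rose without Dox replicate 3 or NoDox replicate 1. Of 6 tested CDK inhibitors 5 fell and 0 rose: CDKN2B (1.15, 1.57 and 1.31 CPM in Dox, against 7.90, 8.77 and 9.09 CPM in NoDox; -2.67 ± 0.19) and CDKN2C (1.85, 1.52 and 1.13 CPM in Dox, against 7.26, 7.39 and 6.35 CPM in NoDox; -2.21 ± 0.18) fell most, and CDKN1A did not pass (-0.06, adjusted p = 0.667). Immediate early genes were lower, 12 of 18 against 1 higher (median -0.50), with CCN1 (142, 167 and 148 CPM in Dox, against 330, 339 and 323 CPM in NoDox; -1.12 ± 0.07), NR4A1 (-1.04) and FOSB (-1.16 ± 0.23) down. The 1 that rose was IER3 (131, 159 and 154 CPM in Dox, against 31.7, 39.2 and 41.4 CPM in NoDox; 1.99 ± 0.12). Of 25 hypoxia and glycolysis genes 10 rose and 2 fell (median 0.13; 1 fell without Dox replicate 2, Dox replicate 3 or NoDox replicate 1), of 20 cholesterol synthesis genes 5 rose and 1 fell, of 21 ATF4 stress genes 8 rose and 3 fell, and of 13 mitochondrially encoded protein genes 3 rose and 0 fell (median 0.15).

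**Figure D3:**
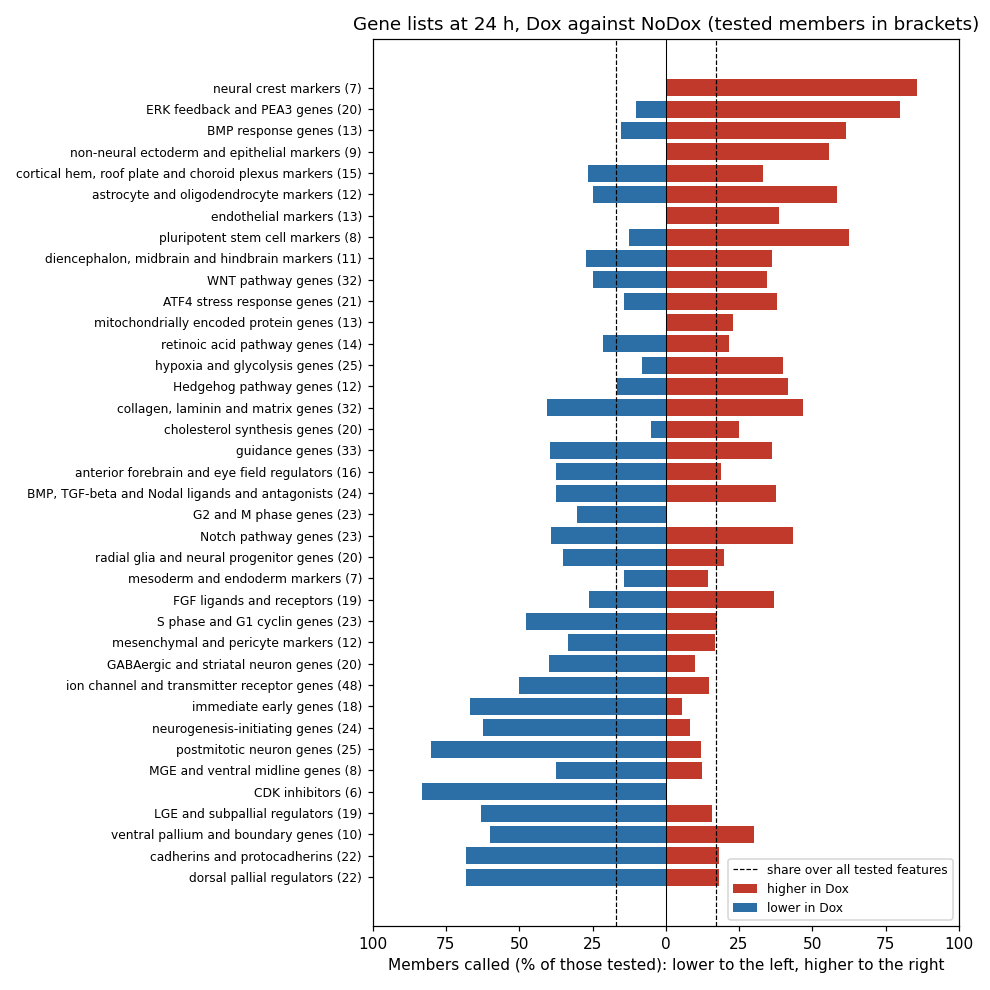
Share of the tested members of each of the 38 lists (rows, with the number tested in brackets) that were higher (red, to the right) or lower (blue, to the left) in Dox at 24 h, in percent, sorted by median log2 fold change. Dashed lines give the share over all tested features, 17% higher and 16.9% lower. Neuronal, dorsal, LGE and subpallial, ventral pallium, cadherin, CDK inhibitor and immediate early lists reach far beyond the line on the lower side. Lists such as neural crest and ERK feedback do so on the higher side.

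Markers of other cell types moved in the same comparison, and their part in the results above was not tested. Of 7 tested neural crest markers 6 rose and 0 fell (median 1.18), and the summed level was 84.9 to 99.1 CPM in Dox and 36.6 to 41.4 CPM in NoDox. SOX10 had 32.4, 22.5 and 25.3 CPM in Dox, against 6.97, 6.38 and 8.22 CPM in NoDox (1.90 ± 0.14), and MITF (1.21 ± 0.12), ETS1 (1.40 ± 0.21) and NGFR (0.95 ± 0.10) rose. FOXD3, TFAP2B, TWIST1, PRRX1 and ALX4, the other 5 of the 12, were too low to test.

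Of 13 tested endothelial markers 5 rose and 0 fell, and the sum was 87.4 to 109 CPM in Dox and 29.6 to 33.5 CPM in NoDox. KDR and SELE made most of the sum in Dox, EGFL7 followed (18.5, 20.1 and 17.7 CPM in Dox, against 7.84, 8.35 and 8.54 CPM in NoDox; 1.19 ± 0.10), CDH5 averaged 0.482 CPM in Dox and 0.348 CPM in NoDox and did not pass, EMCN had 0 reads in all 6 libraries, and PECAM1, ERG and SOX17 were too low to test. Of 9 tested epithelial markers 5 rose and 0 fell, with KRT18 (96.7, 141 and 136 CPM in Dox, against 32.8, 41.5 and 41.5 CPM in NoDox; 1.69 ± 0.11), KRT8 (0.90 ± 0.08) and EPCAM (0.96 ± 0.19) higher, a summed level of 477 to 601 CPM in Dox and 301 to 334 CPM in NoDox, and KRT5, KRT14 and TP63 too low to test. Of 8 tested pluripotency markers 5 rose and 1 fell, with a sum of 407 to 425 CPM in Dox and 351 to 363 CPM in NoDox. Only 3 rose when any one of Dox replicates 1 and 3 and NoDox replicates 1 and 3 was left out. The core factors POU5F1 (4, 1 and 1 reads in Dox, against 1, 4 and 2 reads in NoDox) and NANOG (5, 2 and 0 reads in Dox, against 6, 8 and 1 reads in NoDox) were too low to test. Most of the difference in the sum was L1TD1: this RNA-binding protein of stem cells had 60.1, 66.6 and 64.8 CPM in Dox, against 7.32, 7.60 and 8.36 CPM in NoDox (3.05 ± 0.12). Of 12 astrocyte and oligodendrocyte markers 7 rose and 3 fell (866 to 1020 CPM in Dox, 702 to 728 CPM in NoDox), with OLIG1 (0.90) and OLIG2 (0.80) higher and MBP lower (-1.51 ± 0.32).

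The remaining lists of other cells were mixed. Of 15 cortical hem and choroid plexus markers 5 rose and 4 fell (176 to 192 CPM in Dox, 163 to 185 CPM in NoDox). Of 11 diencephalon, midbrain and hindbrain markers 4 rose and 3 fell (291 to 318 CPM in Dox, 551 to 607 CPM in NoDox), with PAX7 higher (1.87 ± 0.27), POMC lower (-2.32 ± 0.21) and EN1 at 0 in all 6 libraries. Most of the difference in this sum was FEZF1, a member of the list, which averaged 207 CPM in Dox and 496 CPM in NoDox. Of 12 mesenchymal and pericyte markers 2 rose and 4 fell (1640 to 2140 CPM in Dox, 1200 to 1370 CPM in NoDox), most of it COL1A1 and COL1A2, and DCN was at 0 in all 6 libraries. Of 7 tested mesoderm and endoderm markers 1 rose and 1 fell (66.1 to 78.6 CPM in Dox, 130 to 141 CPM in NoDox), EOMES being the one that fell, and TBXT and FOXA2 were at 0 in all 6 libraries.

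Each effect at 24 h was also set beside the effect at the end of the pulse, with separate controls at each time. Of the 726 features higher by at least 2-fold at 24 h, 376 were higher, 110 lower and 240 not past the threshold at 12 h, where 19.8% of all features were higher and 19.9% lower. Of the 680 lower by at least 2-fold, 416 were lower, 26 higher and 238 not past it at 12 h. Their median log2 fold changes at 12, 24 and 48 h were 0.68, 1.41 and 0.30 for the higher set and -1.05, -1.65 and -0.35 for the lower set, the 24 h values being those that chose the sets.

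The difference between the 24 h and the 12 h effect was positive in 3157 features (16.1%) and negative in 2917 (14.8%), and with library totals in place of TMM in 1914 and 5719, with the median difference over all features at -0.21 in place of -0.02. Over all features, 760 were lower at 12 h and higher at 24 h with the difference between the effects past the threshold (3.87%), and 372 went the other way (1.89%). VAX1 averaged 21.7 ± 1.78 CPM in Dox and 39.7 ± 4.53 CPM in NoDox at 12 h, and 124 ± 3.75 CPM in Dox and 26.5 ± 3.24 CPM in NoDox at 24 h (difference of the effects 3.10, adjusted p = 2.14e-15). NRP2 averaged 15.0 ± 1.81 CPM in Dox and 73.0 ± 6.10 CPM in NoDox at 12 h, and 116 ± 6.997 CPM in Dox and 46.8 ± 6.37 CPM in NoDox at 24 h. In both, the NoDox level itself was lower at 24 h than at 12 h, and the Dox level was above day 10, which was 30.0 CPM for VAX1 and 67.0 CPM for NRP2.

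At 48 h, 176 of the 726 were still higher and 200 of the 680 still lower, where 9.22% and 8.94% of all features were. WLS was at 42.0 ± 7.74 CPM in Dox and 19.0 ± 5.79 CPM in NoDox at 48 h, and RTL1 was level (222 ± 2.55 CPM in Dox, 226 ± 4.16 CPM in NoDox). LMO1 was higher still (123 ± 17.9 CPM in Dox, 36.6 ± 3.58 CPM in NoDox). DLX5 averaged 31.4 ± 2.28 CPM in Dox and 21.9 ± 7.16 CPM in NoDox at 48 h, where it did not pass (0.52, adjusted p = 0.145). GRIA2 had reached 7.48 ± 1.05 CPM in Dox and 7.93 ± 1.98 CPM in NoDox. EMX2 was still lower (145 ± 9.70 CPM in Dox, 379 ± 25.5 CPM in NoDox), and NEUROG1 too (0.348 ± 0.253 CPM in Dox, 3.62 ± 0.134 CPM in NoDox). Of the 726, 247 stood above all 18 other libraries of the series at 24 h in all 3 Dox libraries, and of the 680, 104 stood below them. These counts are 1.26% and 0.529% of all features tested. Among all features 3.43% stood above and 2.25% below, but both sets had been chosen by the same 24 h Dox libraries.

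**Figure D4:**
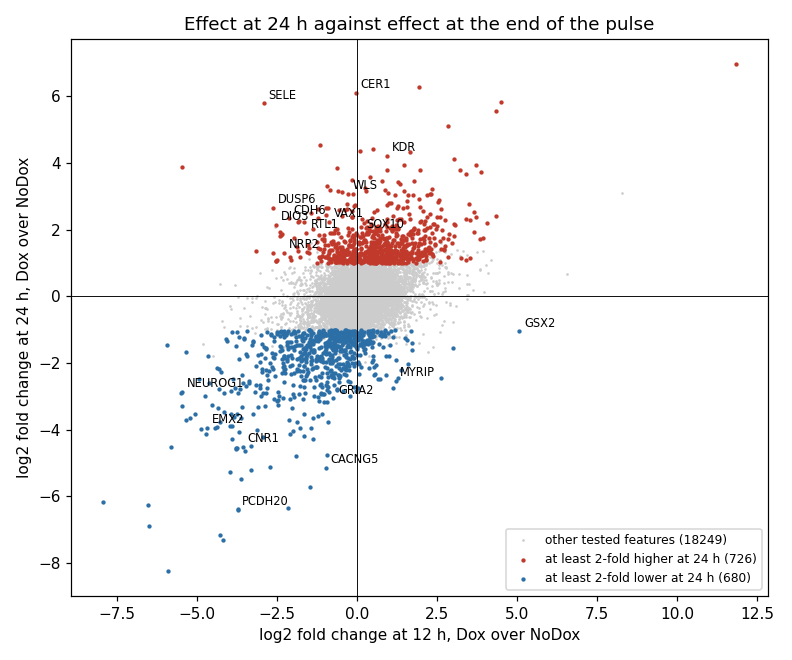
Log2 fold change at 24 h (y axis) against that at 12 h (x axis), Dox over NoDox, 1 point per tested feature, with features at least 2-fold higher (726, red) or lower (680, blue) at 24 h in colour. The lower left holds genes low at both times such as EMX2, CNR1 and PCDH20; the upper left holds those low at 12 h and high at 24 h, such as SELE, DUSP6, DIO3, CDH6 and NRP2; GSX2 is at the right with a negative value at 24 h, and the unlabelled point at the upper right is the transgene.

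**Figure D5:**
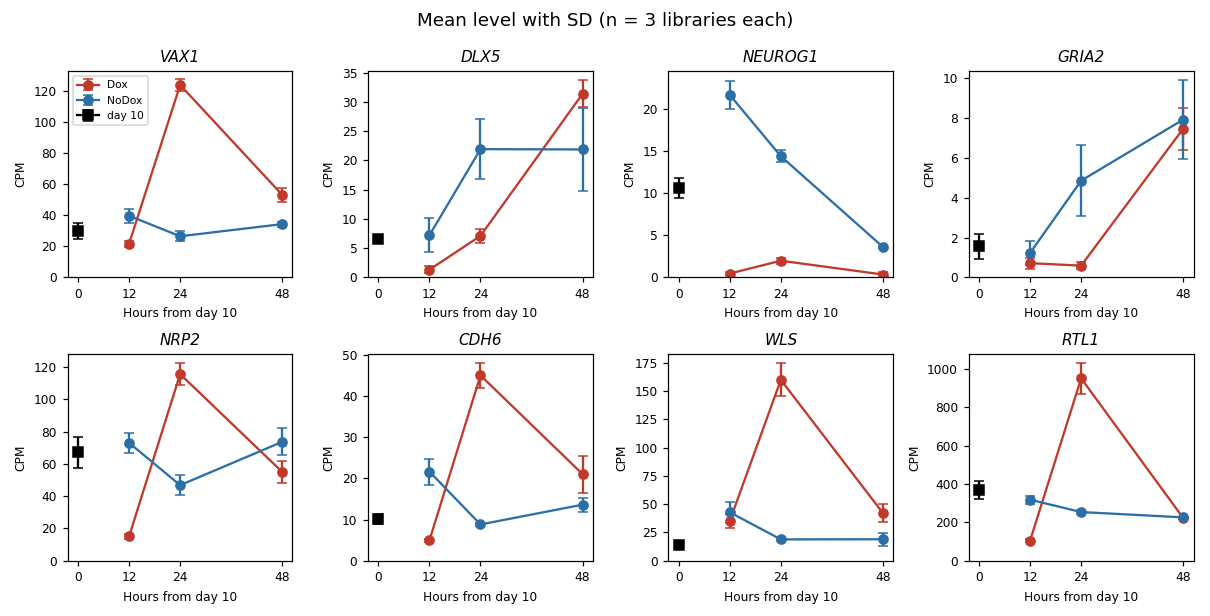
Mean level with SD (n = 3 libraries; y axis, CPM from 0) of 8 genes at 12, 24 and 48 h from day 10 in Dox (red) and NoDox (blue), with day 10 as a black square. VAX1, NRP2, CDH6, WLS and RTL1 peak in Dox at 24 h, GRIA2 and DLX5 are below NoDox at 24 h and near or above its mean at 48 h, and NEUROG1 stays low.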

How the data were processed

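The authors deposited gene counts, per the labels and the file's values, in 1 table of 61268 features for 21 libraries. The submitters' processing notes name STAR 2.7.9, Subread 2.0.3, DESeq2 and hg38. No source used here gives the strand setting or the annotation. The authors also deposited normalized counts for 19874 of the features, a signal in which each count is divided by 1 factor per library. These were used only in an alternative.

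Libraries were grouped by their labels. The deposited counts were filtered with filterByExpr and scaled with TMM, and all 7 groups were fitted together with edgeR 4.0.16 in R 4.3.3 (quasi-likelihood test, 14 residual degrees of freedom), which was tested on simulated data. Benjamini-Hochberg adjustment ran over all 19655 features tested. Standard errors are the log2 fold change over the square root of F. The 24 h minus 12 h difference was a contrast in the same fit. Intervals of low-count ratios are exact and cover counting error only. Totals of 21.53 to 33.84 M counts at 24 h set the precision. DESeq2 1.42.0, limma 3.58.1, other scalings, no filter, the replicate block and left-out libraries were alternatives.

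The members and lists were chosen with earlier results of these data known. Genes were named by rule: the 20 steepest each way with at least 2 CPM in a 24 h group and libraries wholly apart, the 12 largest CPM differences each way without mitochondrially encoded genes, up to 6 called genes per list, 8 each way with opposite calls at 12 and 24 h, and 6 each way with at least 2-fold at 24 h that did not pass at 12 h. Not all of them are described, some are not reported here, and other list members are given with their values.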

Additional observations from a re-analysis of the deposited data

Results flagged for a closer look

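For 58 of the 263 named genes the effect of the pulse was called in opposite directions at 12 h and 24 h. The difference between the effects passed the threshold as well, in edgeR's quasi-likelihood test. The 29 given below were named by fold change, CPM difference or opposite calls, and the other 29 by the lists only. Across the 263 named genes the difference passed for 174. Each value below is the log2 effect at 24 h minus that at 12 h. High and low are relative to NoDox at the same hour, and the NoDox level itself could differ between 12 and 24 h. Up to 8 genes each way were named because they had this pattern, so their number is no result.

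Signalling genes low at 12 h and high at 24 h were DUSP6, the ERK phosphatase (5.29), the ETS factor ETV4 (3.78), the ligand FGF8 (3.6), the angiopoietin ANGPT2 (4.24), IGFBP3 (4.34) and IGFBP5 (2.19), which bind insulin-like growth factors, and the adhesion receptor SELE (8.72). The 12 h effect of SELE rests on few reads, at 0, 0.0385 and 0.153 CPM in Dox. NoDox had 0.611, 0.320 and 0.440 CPM at 12 h, so the size of the SELE difference is uncertain. DIO3, which inactivates thyroid hormone (4.68), RTL1 (3.51) and DLK1 (1.34) lie in 1 imprinted region. CDH6 (4.48), the collagens COL18A1 (1.17) and COL2A1 (0.84), the neuronal adhesion protein CNTNAP2 (1.56), the secreted LGI1 (4.23), the filament gene NES (1.59), FAM181B (4.48) and the epithelial factor GRHL3 (4.07) had the same pattern. So did SLC2A1 (2.06) and the lipid enzymes SCD (1.03) and FASN (1.06). In DUSP6, ETV4, FGF8, ANGPT2, IGFBP3, CDH6 and LGI1 the NoDox level was itself lower at 24 h than at 12 h, while in IGFBP5 and DIO3 it overlapped. IGFBP3 in NoDox had 98.7, 117 and 108 CPM at 12 h and 32.3, 45.0 and 43.8 CPM at 24 h. In Dox at 24 h it had 149, 160 and 149 CPM, near its day 10 level of 155, 166 and 151 CPM. With library totals in place of TMM the pattern ended for FAM181B (12 h effect -0.46) and COL18A1 (12 h effect -0.00309), since their 12 h effects no longer passed.

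Genes high at 12 h and low at 24 h were GSX2 (-6.11), whose count may include transgene reads, MYRIP (-3.73), KHDRBS2 (-2.43), the receptor CRHR1 (-2.1), TSHZ2 (-2.09), KLHL32 (-2.06), GABRQ (-2.02) and ENSG00000271743 (-1.9). For each of them the NoDox level was itself higher at 24 h than at 12 h. In NoDox, CRHR1 had 1.68, 1.10 and 1.23 CPM at 12 h and 4.98, 3.23 and 3.33 CPM at 24 h. In Dox it had 3.72, 2.85 and 2.09 CPM at 12 h and 2.31, 1.96 and 1.76 CPM at 24 h. The 24 h calls of TSHZ2 and GABRQ were lost when single libraries were left out. Groups of 3 libraries were not tested for outlying samples.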

How the results depend on the processing

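The number of features higher and lower at 24 h stayed within 1.5 times of 3349 and 3316 in every alternative run. It was 2756 to 3012 and 2684 to 2873 when each 24 h library was left out in turn, with 694 to 728 and 638 to 716 by at least 2-fold and 2814 to 3010 and 2421 to 2642 for the 24 h minus 12 h difference. With library totals alone that difference was positive in 1914 features and negative in 5719, against 3157 and 2917 with TMM. Among 263 named genes no direction turned, and 72 of their 3670 alternative values lost the call. Of the lists' alternative values, 49 counts moved by over 1.5 times and 1015 did not, and 64 medians moved by more than the spread between Dox libraries and 468 did not. Without the 12 h Dox replicate 3 and day 10 replicate 1 libraries 11 radial glia genes were lower and 6 mitochondrially encoded genes higher. Of the 58 named genes with opposite calls at 12 and 24 h, 53 were so called with library totals as well; FAM181B, COL18A1 and FZD7 were among the 5 that were not. The medians of the guidance, eye field, retinoic acid, diencephalon, BMP ligand and mesoderm lists came to the other side of 0, or to 0, in at least 1 alternative.

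Same-numbered Dox and NoDox libraries at 24 h correlated at 0.0616, 0.0359 and 0.0312 over all tested features, and at 0.253, 0.122 and 0.115 over the 11147 with at least 10 CPM. The labels do not say that a number marks a shared culture. With the replicate block 4479 features were higher and 4359 lower, and among the named genes GSX2 alone lost its call. The block gave 17 higher hypoxia genes, 9 higher cholesterol genes, 8 higher mitochondrially encoded genes and 5 higher LGE genes.

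Genes with few reads, such as NKX2-1, SHH and GSX1, are known only within wide intervals at this depth.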

Other observations

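The imprinted region from DLK1 to DIO3 on chromosome 14 (hg38, 100725705 to 101563452) was looked at after DLK1, RTL1 and DIO3 had been named by their values. Of the 5 other features tested that lie wholly within these bounds, 4 were higher in Dox at 24 h, and several of them overlap, so the count is a description only. At 12 h 2 of the 5 were lower. MEG3, a long RNA of the maternal allele, averaged 182 ± 1.43 CPM in Dox and 80.9 ± 5.43 CPM in NoDox at 24 h (log2 fold change 1.17 ± 0.13), and its 12 h effect was -0.97. RTL1, a paternal gene derived from a retrotransposon, averaged 950 ± 80.3 CPM in Dox and 253 ± 10.7 CPM in NoDox (1.91 ± 0.08). DIO3 averaged 109 ± 15.9 CPM in Dox and 24.6 ± 1.74 CPM in NoDox (2.15 ± 0.09), against a 12 h effect of -2.54. DIO3OS, the antisense gene of DIO3, was not wholly within the bounds and is not counted above. At 24 h DIO3OS had 72.7, 61.7 and 66.5 CPM in Dox, against 16.3, 18.6 and 18.6 CPM in NoDox. Where it overlaps DIO3, reads of the pair cannot be told apart. MEG9 (1.46) and MEG8 (0.47) were higher and MIR493HG did not pass (0.53, adjusted p = 0.111). RTL1 and MEG8 overlap on opposite strands and their reads cannot be told apart, so the features are not independent of each other.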
